A study of Homo sapiens with 22 samples.

Results

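The loci of 9 cell-cycle and p53 pathway genes, CDKN1A, CDKN1B, CDKN2A, CDKN2B, CCND1, CDK6, CCNE1, RB1 and MDM2, were examined for peaks of CTCF, of cohesin subunits and of proteins that regulate cohesin. A peak belonged to a locus when its summit lay in the gene body or within 50 kb on either side, with gene bodies from the RefSeq table of GRCh38.p14. The windows of CDKN2A and CDKN2B overlap and were described as 1 locus, which gave 8 loci spanning 1335 kb. They held 334 of the 341123 peaks of the 12 deposited lists. Merging overlapping peaks of different lists gave 64 sites at these loci.

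The data were chromatin immunoprecipitation sequencing (ChIP-seq) of hTERT RPE-1, a line of human retinal pigment epithelium immortalised with telomerase. Wild-type cells gave the CTCF and WAPL libraries. The other proteins came from 2 clones whose NIPBL, the cohesin loader, carries the FKBP12(F36V) degron and is degraded when cells receive dTAGV-1. Clone NIPBL-A2 has the genotype mCherry-P2A-FKBP12(F36V)-NIPBL and clone NIPBL-D7 the genotype mGreenLantern-P2A-FKBP12(F36V)-NIPBL, so each genotype is represented by 1 clone. In each clone RAD21 was precipitated after 24 h in the solvent DMSO, after 4 h in dTAGV-1 and after 24 h in dTAGV-1. PDS5A was precipitated from clone D7 after 24 h in DMSO, STAG1 and STAG2 from clone D7 and HA from clone A2 with no treatment named. The cells were asynchronous and cycling, and these RAD21 and PDS5A libraries carried mouse chromatin as a spike-in, which was not used here. Each group was 1 library, which leaves every difference below without a replicate check or a p-value, and the clones were kept apart as separate groups.

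The p53 and RB pathways meet at the start of S phase. Cyclin D with CDK6 and cyclin E with CDK2 phosphorylate the retinoblastoma protein and release E2F factors, and the CDK inhibitors encoded by CDKN1A, CDKN1B, CDKN2A and CDKN2B restrain these kinases. p53 activates CDKN1A and also MDM2, whose product is the ubiquitin ligase that turns p53 over. Cohesin is a ring complex that extrudes chromatin loops and is held at sites bound by CTCF. RAD21 is its kleisin subunit, STAG1 and STAG2 are alternative accessory subunits, NIPBL loads it and drives its movement, and WAPL and PDS5A take part in its release.

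The starts of 6 transcripts are shown first, because RAD21 peaks over these starts, some with a CTCF peak and some without, recur in the results below. The promoter table of RefSeq (GRCh38.p14) holds 8 of the 9 genes. CCND1 has no entry in it, and the entry of RB1 lies inside the gene. Each line gives the 100 bases before the start and the first 10 from it, on the strand of the gene, 5′ to 3′. Capitals mark AGGGGGC, a core of the CTCF motif, or its reverse complement GCCCCCT, searched on both strands. Of 35116 promoters in the table, 7.17% hold either in the same 110 bases.
MDM2 at chr12:68808072-68808181, plus strand: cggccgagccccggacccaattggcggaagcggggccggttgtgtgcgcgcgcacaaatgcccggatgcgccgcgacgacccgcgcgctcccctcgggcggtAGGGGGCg
CDKN2B at chr9:22009296-22009405, minus strand: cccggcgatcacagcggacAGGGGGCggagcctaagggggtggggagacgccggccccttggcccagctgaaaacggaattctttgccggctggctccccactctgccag
CDKN2A, inner start, at chr9:21974848-21974957, minus strand: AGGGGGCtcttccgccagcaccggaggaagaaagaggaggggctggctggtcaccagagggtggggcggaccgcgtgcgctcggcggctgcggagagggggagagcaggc
CDK6, inner start, at chr7:92833950-92834059, minus strand: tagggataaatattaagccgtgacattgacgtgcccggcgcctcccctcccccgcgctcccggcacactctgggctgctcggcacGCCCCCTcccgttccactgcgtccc
CDKN1A at chr6:36678614-36678723, plus strand: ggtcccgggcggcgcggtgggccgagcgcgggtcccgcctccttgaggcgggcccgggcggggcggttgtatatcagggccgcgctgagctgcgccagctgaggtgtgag
CDKN1B at chr12:12717268-12717377, plus strand: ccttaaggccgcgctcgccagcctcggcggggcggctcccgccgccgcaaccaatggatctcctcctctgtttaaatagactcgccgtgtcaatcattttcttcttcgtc
In MDM2 the motif spans bases 3 to 9, counted from 1 at the start, and the summit of the CTCF peak lies 9 bases before the start. In CDKN2B it begins at base -81 and in CDK6 at base -15, while the CTCF summits lie 526 and 798 bases into those genes. The inner start of CDKN2A, from which the p16INK4a transcript runs, holds the letters at base -100 but lies under no CTCF peak. CDKN1A and CDKN1B hold neither form in this window, and no CTCF peak overlaps it. A match of these letters is a description and not a binding site.

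The lists ranged from 230 peaks for HA and 2667 for WAPL to 59138 for CTCF, and the 6 RAD21 lists held 25763 to 39713. Read totals were not in the files. The lowest background pileup of a list was recovered from the fold and the p-value of its peaks and served as depth. It was 1.87 for clone A2 DMSO and 2.83 to 3.16 for its dTAGV-1 lists. Clone D7 had 3.00 for DMSO, 4.05 for 4 h and 3.07 for 24 h, and CTCF was deepest at 13.4. The fold enrichments below are the authors' values, each relative to its own library's background, and are set side by side without a claim of change. Intervals are 95% Wilson intervals and cover counting error only.

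RAD21 peaks at the 8 loci numbered 40 in clone A2 DMSO, and dTAGV-1 left 21 after 4 h and 27 after 24 h. Clone D7 had 35 such peaks in DMSO, 40 at 4 h and 32 at 24 h. The 4 h lists set the clones apart: clone A2 had fewer peaks at all 8 loci, whereas clone D7 had more at 4 loci, the same number at 1 and fewer at 3. As ratios to DMSO, clone A2 stood at 0.525 and 0.675, beside 0.649 and 0.720 over its whole lists, and clone D7 at 1.14 and 0.914, beside 1.04 and 0.802. CTCF had 49 peaks at the loci, PDS5A 36, STAG1 31, STAG2 19, WAPL 4 and HA 0. The clone D7 4 h list was also the deepest of the 6, and with peaks of a −log10 q of at least 10 only, its ratio was 0.900. After the 6 lists were thinned to equal background pileup, the 4 h ratio was 0.525 for clone A2 and 1.03 for clone D7.

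**Figure D1:**
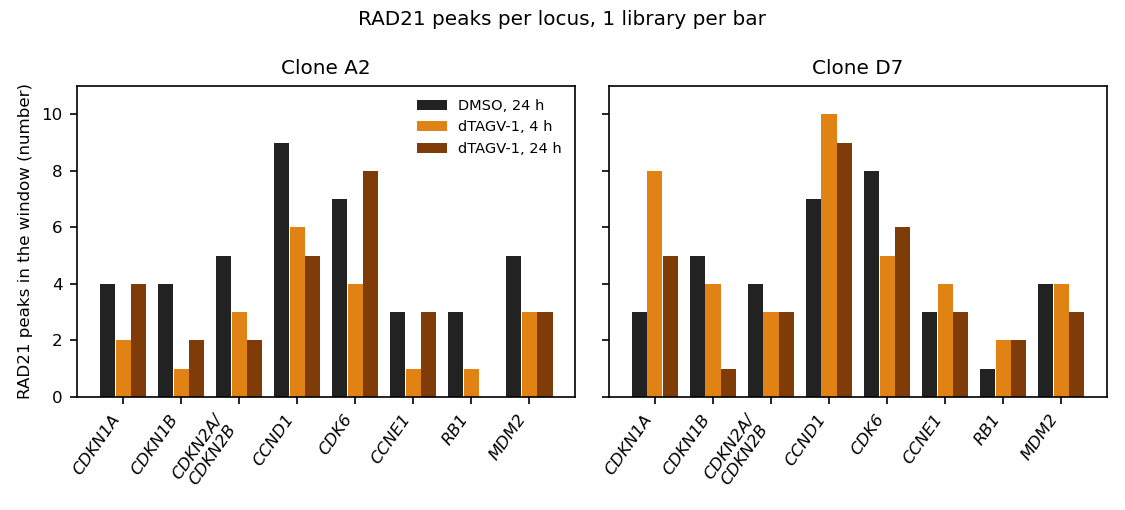
Number of RAD21 peaks (y axis) in the window of each locus (x axis) for clone A2 on the left and clone D7 on the right, 1 library per bar, so there are no error bars. In clone A2 the 4 h bar is below the DMSO bar at all 8 loci; in clone D7 it is above at CDKN1A, CCND1, CCNE1 and RB1.

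Retention, the share of DMSO RAD21 peaks overlapped by a peak of the same clone after dTAGV-1, was 52.5% to 65.0% at these loci in clone A2 and 68.6% to 80.0% in clone D7. In clone A2, 21 of 40 DMSO peaks were kept at 4 h (52.5%, interval 37.5% to 67.1%), against 62.2% of all DMSO peaks. At 24 h, 26 of 40 were kept (65.0%, 49.5% to 77.9%), against 64.0%. In clone D7, 28 of 35 were kept at 4 h (80.0%, 64.1% to 90.0%), against 80.0%, and 24 of 35 at 24 h (68.6%, 52.0% to 81.4%), against 68.8%. The interval of the 9 genes' loci held the value of the whole list in each of the 4 comparisons, so a difference of the loci from the rest was not detectable with this number of peaks. The order of the clones at 4 h reversed with the 6 RAD21 lists cut to equal length by fold, which also drops the peaks of low fold. Clone A2 then kept 19 of 22 (86.4%, 66.7% to 95.3%) and clone D7 19 of 26 (73.1%, 53.9% to 86.3%). The order held at equal depth, with 52.5% (37.5% to 67.1%) in clone A2 and 71.9% (54.6% to 84.4%) in clone D7. It also held with windows of 20 kb or 100 kb and in gene bodies alone. With a −log10 q of at least 10, the values were 65.5% and 66.7%.

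The peaks kept were then counted by CTCF overlap and by fold. Of the DMSO peaks at the loci, 35 of 40 in clone A2 (87.5%, beside 85.9% of the whole list) and 30 of 35 in clone D7 (85.7%, beside 83.1%) overlapped a wild-type CTCF peak. In clone A2, 60.0% of the CTCF-overlapping peaks were kept at 4 h and 71.4% at 24 h, against 0 of 5 and 1 of 5 CTCF-free peaks (whole list: 71.5% and 71.0%, against 5.19% and 21.4%). In clone D7, 83.3% and 76.7% of the CTCF-overlapping peaks were kept, against 3 of 5 and 1 of 5 CTCF-free ones (whole list: 86.1% and 77.5%, against 50.3% and 25.8%). With 5 CTCF-free peaks per clone the intervals are wide: 0 of 5 allows up to 43.4%, and 3 of 5 spans 23.1% to 88.2%. Of DMSO peaks above the median fold of their list, 15 of 17 were kept in clone A2 at 4 h and 16 of 17 at 24 h, and 17 of 17 in clone D7 at both times. Of those at or below it, 6 of 23, 10 of 23, 11 of 18 and 7 of 18 were kept. Over the whole lists, 95.5%, 88.7%, 97.8% and 94.1% were kept above the median and 28.9%, 39.4%, 62.2% and 43.4% at or below it, in the same order.

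**Figure D2:**
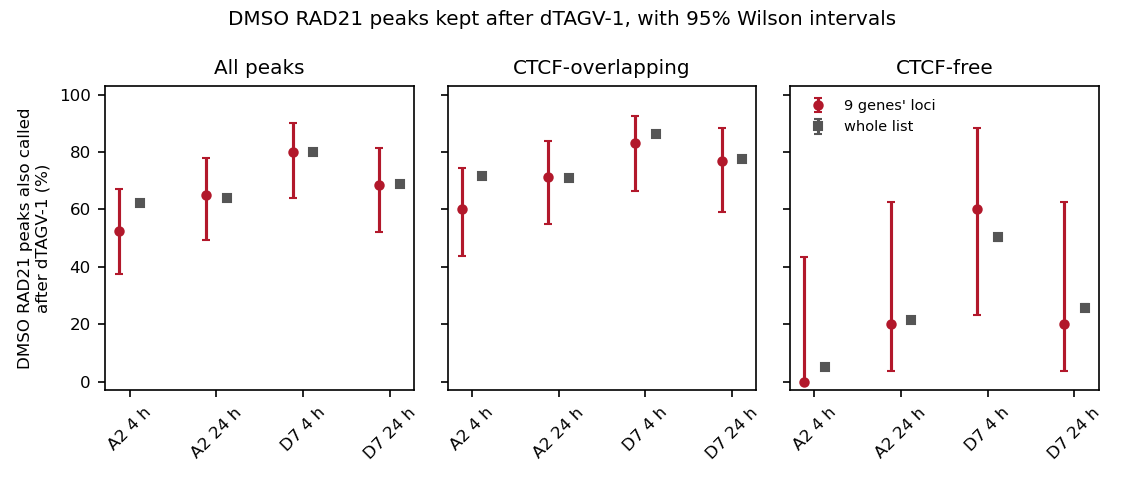
Percent of DMSO RAD21 peaks (y axis) that overlapped a peak of the same clone after 4 h or 24 h of dTAGV-1 (x axis), for all peaks, CTCF-overlapping peaks and CTCF-free peaks. Circles are the loci of the 9 genes and squares the whole list, with 95% Wilson intervals for counting error; the square lies within the circle's interval in each panel and comparison.

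RAD21 peaks absent from the clone's own DMSO list were few in clone A2, 0 of 21 at 4 h, where the whole list had 3.64%, and 1 of 27 at 24 h, where it had 10.8%. Clone D7 had 10 of 40 at 4 h (25.0%, interval 14.2% to 40.2%), beside 22.7% of the whole list, and 5 of 32 at 24 h (15.6%, 6.86% to 31.8%), beside 13.5%. Of the 10 at 4 h, 5 overlapped CTCF (50.0%, beside 40.8% of such peaks over the whole list), and 5 of the 10 lay at the CDKN1A locus. CTCF overlapped all 21 RAD21 peaks of the 4 h list of clone A2 at the loci (100%, beside 97.9% of the list) and 92.6% of its 24 h peaks (beside 90.7%). For clone D7 these shares were 77.5% at 4 h (31 of 40, beside 78.2%) and 90.6% at 24 h (29 of 32, beside 90.7%).

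The 64 sites fell into classes by the RAD21 lists that held them. There were 16 sites with a peak in all 6 lists, and all 16 carried CTCF, with a median CTCF fold of 62.1 (range 10.3 to 118). Another 13 had a peak in both DMSO lists and in 1 to 3 of the dTAGV-1 lists, of which 10 carried CTCF (median fold 21.9). A single site, at the outer start of CDKN2A, was in both DMSO lists and in no dTAGV-1 list. A further 8 sites were in 1 DMSO list, 9 only in dTAGV-1 lists and 17 in no RAD21 list. The sites in all 6 lists were spread over 7 loci, with 4 at CCND1, 3 each at CDK6 and MDM2, 2 each at CDKN1A and the CDKN2A/CDKN2B locus, and 1 each at CDKN1B and CCNE1. RB1 had 0. Of 33 peaks of clone D7 DMSO that were also in clone A2 DMSO, 17 overlapped a peak in each of the 4 dTAGV-1 lists (51.5%, 35.2% to 67.5%), beside 59.7% of all such peaks. In none of these lists was 1 of the 33 (3.03%, 0.537% to 15.3%), beside 6.34% of all such peaks. The site classes themselves have no whole-list share here.

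**Figure D3:**
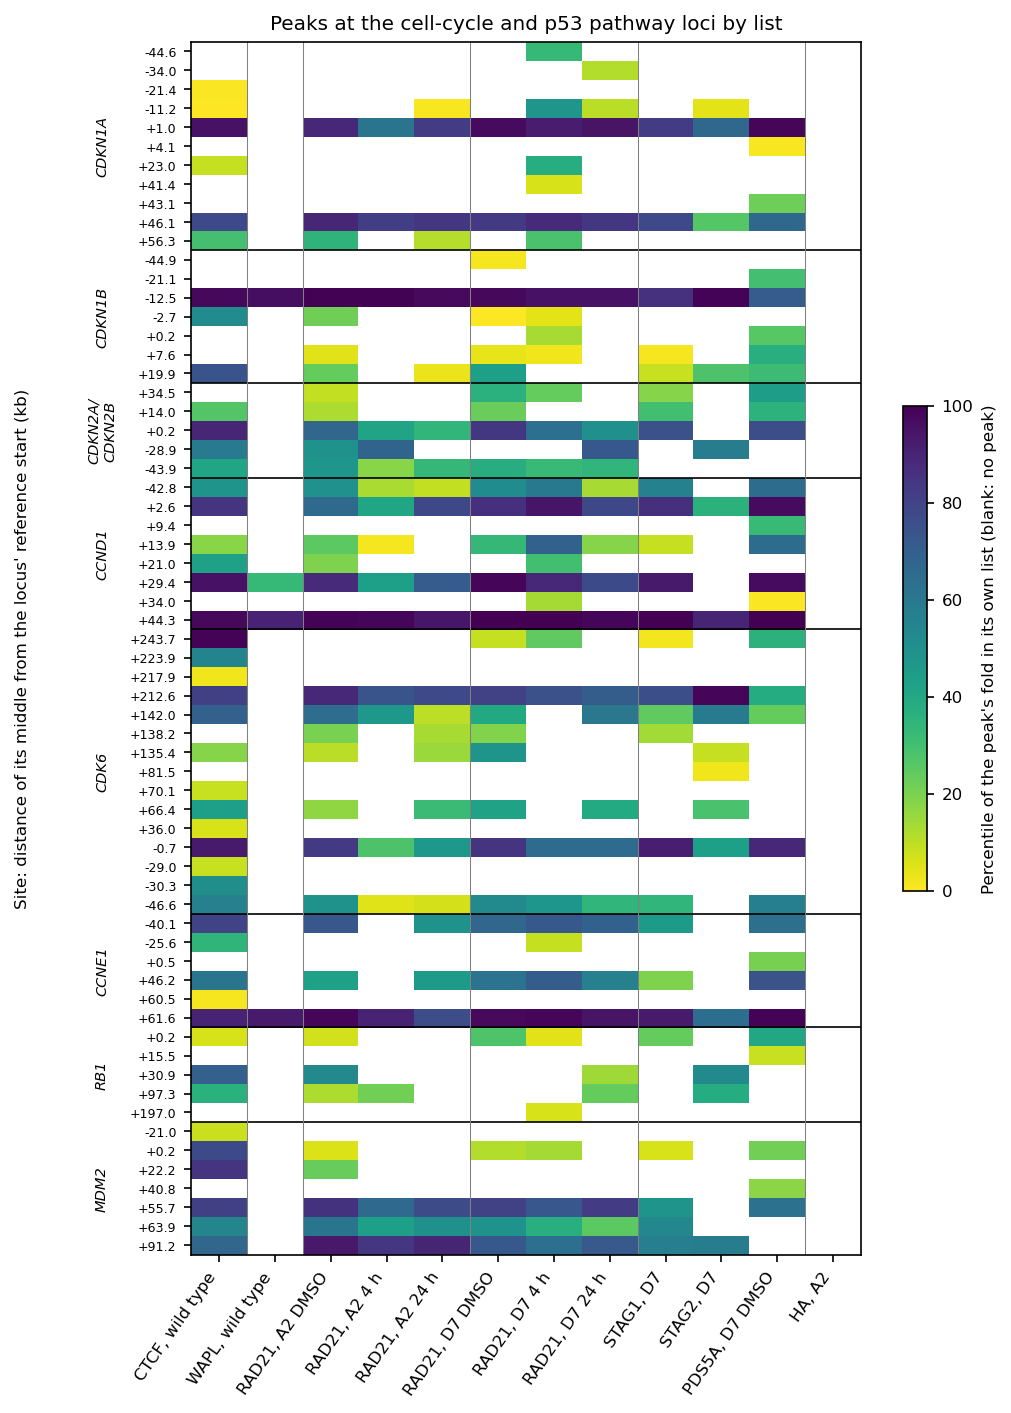
Each row is 1 of the 64 sites, grouped by locus and placed by the distance of its middle (kb, positive into the gene) from the reference start of the locus; columns are the 12 lists. Colour gives the percentile of the site's highest peak by fold in its own list, and white means no peak; 16 rows are filled in all 6 RAD21 columns, and the HA column is empty.

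Peaks at gene starts were also counted by list, in a tally chosen after the values of the sites were seen. It covered 11 points: the starts of CDKN1A, CDKN1B, CDKN2B, CCNE1 and MDM2, both starts of CDKN2A and of CDK6, and the gene end at the lower coordinate for CCND1 and RB1. A RAD21 peak lay within 1 kb of 9 of the 11 in clone A2 DMSO and of 9 of the 11 in clone D7 DMSO, where 29.3% and 32.8% of all 22077 protein-coding starts had one. The 11 points were not drawn as those starts were. The listed RB1 start, inside the gene, had no peak in any list and was replaced by the gene end. CCND1 has no listed start, and the listed MDM2 starts counted as 1. In DMSO both CDK6 starts lie under 1 peak, and both lists lacked a peak at CDKN1B and CCNE1. After dTAGV-1, clone A2 had a peak at 2 of the 11 points at 4 h (8.20% of all starts) and at 3 at 24 h (13.8%), and clone D7 at 9 (35.6%) and 5 (19.0%). In clone A2, 2 of the 9 were kept at 4 h (22.2%, interval 6.32% to 54.7%) and 3 of 9 at 24 h (33.3%, 12.1% to 64.6%), where 27.5% and 44.7% of all starts with a DMSO peak kept one. In clone D7, 8 of 9 were kept at 4 h (88.9%, 56.5% to 98.0%) and 5 of 9 at 24 h (55.6%, 26.7% to 81.1%), where 81.5% and 54.5% of all such starts did. The starts kept in all 4 dTAGV-1 lists were that of CDKN2B and the inner start of CDK6. PDS5A had a peak at 11 of the 11 points (36.2% of all starts) and STAG1 at 9 (28.7%), while STAG2 had 1 of 11 (5.71%), the inner start of CDK6, WAPL 0 of 11 (0.625%) and HA 0 of 11 (0.0770%). CTCF had a peak at 6 of them, beside 35.7% of all starts. The 6 were those of MDM2, CDKN2B, CCND1 and RB1, the outer start of CDKN2A and the inner start of CDK6. Of the 6, 2 kept RAD21 in all 4 dTAGV-1 lists and the outer start of CDKN2A in none. The start of CDKN1A, with no CTCF peak within 1 kb, kept it in clone D7 at both times and in clone A2 at neither. That start lies at 36678714, and a CTCF peak begins at 36679723, just past the 1 kb limit.

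CDKN1A, on chromosome 6 at 36676463 to 36687332, encodes p21, the CDK inhibitor through which p53 halts the cycle. It carried 2 kinds of RAD21 peak side by side. The CTCF-free peak over its start had a fold of 5.81 in clone A2 DMSO and 4.65 in clone D7 DMSO. It was called again in clone D7 at 4 h (3.65) and 24 h (4.20), and in clone A2 at neither time. The second lay with a strong CTCF peak (fold 99.9) inside the gene, with the RAD21 summit 1896 bases past the start in clone A2 DMSO. It was in all 6 lists, with folds of 45.5, 16.7 and 31.5 in clone A2 (DMSO, 4 h, 24 h) and 69.3, 52.0 and 60.6 in clone D7. PDS5A covered both with 1 peak of 2733 bases and a fold of 105, at percentile 98.4 of its list. A site with its clone A2 DMSO summit 46054 bases past the start, inside the neighbouring gene RAB44 (chr6:36724275-36725373), was also in all 6 lists, with 46.9, 29.2 and 33.9 in clone A2, and clone D7 had 30.7, 38.1 and 33.8.

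The CDKN1A locus also held the most sites seen only after dTAGV-1, 5 of the 9. In the clone D7 4 h list, the deepest of the 6 RAD21 lists, 25.0% of peaks at the 8 loci and 22.7% of all peaks were absent from DMSO. Upstream of the start, chr6:36667029-36668026 was the site at these loci called after dTAGV-1 in both clones and in neither DMSO list. Its RAD21 folds were 2.46 at 24 h for clone A2 and, for clone D7, 7.12 at 4 h and 4.50 at 24 h, with CTCF at 2.55 and STAG2 at 3.63. The clone A2 peak there stood at percentile 0.813 of its list and the clone D7 peaks at 47.9 and 10.4. The CTCF peak stood at percentile 0.238 of its list and the STAG2 peak at 4.02. The other sites of this kind were in 1 list of clone D7 each, 3 at 4 h and 1 at 24 h, with folds of 3.17 to 5.65. In total, CDKN1A had 8 RAD21 peaks in clone D7 at 4 h and 3 in DMSO.

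CDKN1B, on chromosome 12 at 12717368 to 12722369, encodes p27, an inhibitor of cyclin E and cyclin A kinases. The highest folds of its locus lay at 1 site upstream, inside the neighbouring gene GPR19 (chr12:12704192-12705497), with CTCF at a fold of 118 and WAPL at 15.1. RAD21 there had folds of 106, 87.7 and 81.1 in clone A2, and clone D7 had 74.6, 70.9 and 62.4, STAG1 34.4, STAG2 53.3 and PDS5A 14.5. It was the only CDKN1B site in all 6 lists, and its summit lay at -12537 bases from the start in clone A2 DMSO. The other DMSO peaks were low. Clone D7 DMSO had 5 peaks at the locus and kept 3 at 4 h and 1 at 24 h, and clone A2 DMSO had 4 and kept 1 and 2. A CTCF-bearing site inside APOLD1 (chr12:12736746-12737705) had RAD21 at 6.47 in clone A2 DMSO, 8.10 in clone D7 DMSO and 3.05 in the 24 h list of clone A2, and was called in neither 4 h list. The start itself had a RAD21 peak in clone D7 at 4 h (3.62) and a PDS5A peak (4.02), and none in the other lists.

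CDKN2A, on chromosome 9 at 21967752 to 21995324, encodes p16INK4a, which inhibits CDK4 and CDK6, and, from the outer start, p14ARF, which inhibits MDM2. CDKN2B, at 22002903 to 22009313, encodes p15INK4b, a close relative of p16INK4a. The 3 starts of this locus differed in what was called there. The inner start of CDKN2A (chr9:21974004-21975573) was free of CTCF, with RAD21 at 4.53 in clone A2 DMSO and 6.75 in clone D7 DMSO, and of the dTAGV-1 lists only clone D7 at 4 h had a peak (4.35). The outer start (chr9:21994568-21996003) had a CTCF peak of 6.26 and RAD21 at 4.88 and 5.00 in the DMSO lists, and none of the 4 dTAGV-1 lists had a peak there. The CDKN2B start (chr9:22008370-22009884) had a CTCF peak of 77.3 and RAD21 in all 6 lists, at 21.9, 10.3 and 7.13 in clone A2, and clone D7 had 31.8, 11.9 and 11.3. STAG1 and PDS5A had a peak at all 3 starts, with STAG1 at 4.80, 6.50 and 22.5 and PDS5A at 5.84, 4.78 and 18.6, and STAG2 at none.

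Past CDKN2B, on the side away from CDKN2A, lay 2 CTCF sites. The nearer (chr9:22037884-22038606, CTCF 24.3) had RAD21 at 12.9 in clone A2 DMSO, at 19.4 in the 4 h list of clone A2 and at 21.9 in the 24 h list of clone D7. It had no peak in clone A2 at 24 h, clone D7 DMSO or clone D7 at 4 h. STAG2 had a peak there (12.6) and STAG1 had none, although both came from clone D7. The farther (chr9:22052727-22053700, CTCF 10.3) was in all 6 RAD21 lists at folds of 5.15 to 12.2 and in no STAG1, STAG2 or PDS5A list. At this locus clone A2 DMSO had 5 RAD21 peaks, of which 3 were kept at 4 h and 2 at 24 h, and clone D7 DMSO had 4, of which 3 and 2 were kept.

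CCND1, on chromosome 11 at 69641156 to 69654474, encodes cyclin D1, the partner of CDK4 and CDK6. It had the densest RAD21 peaks of the 8 loci in each of the 6 lists, from 4.41 peaks per 100 kb in clone A2 at 24 h to 8.82 in clone D7 at 4 h. The medians over 19970 protein-coding genes ran from 1.12 to 2.12 in these lists. The site with the highest folds lay past the gene (chr11:69683626-69687241) and held 2 CTCF peaks, the higher at 118, and a WAPL peak of 12.4. RAD21 folds there were 98.2, 71.9 and 58.6 in clone A2, and clone D7 had 124, 215 and 91.1, with STAG1 at 127, STAG2 at 27.9 and PDS5A at 199. A second site with WAPL (6.83) lay inside the neighbouring gene LTO1 (chr11:69669887-69671136), with CTCF at 99.7. RAD21 had 44.1, 10.8 and 20.1 there in clone A2, and clone D7 had 81.4, 41.1 and 26.5, and STAG2 had no peak.

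Over CCND1 itself the peaks were broad in DMSO. Clone A2 DMSO had a RAD21 peak of 5803 bases (chr11:69638114-69643916) across the lower-coordinate end of the gene, clone D7 DMSO one of 4548 bases (chr11:69640299-69644846) beside a separate one of 1498 bases, and PDS5A one of 9039 bases (chr11:69640284-69649322). In clone A2 the peak that remained was 627 bases at 4 h and 1605 bases at 24 h. Both overlapped the CTCF peak of fold 66.4 inside the gene, and neither reached the gene end. In clone D7 the DMSO peak of 4548 bases was overlapped at 4 h by 2 peaks, of 1005 bases at the gene end and of 2908 bases with a fold of 65.9, where DMSO had 36.3. At 24 h it was overlapped by 3 peaks of 377 to 1279 bases, 1 of them at the gene end. All 7 clone D7 DMSO peaks at CCND1 overlapped a peak at both times, whereas clone A2 kept 6 of 9 at each time.

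CDK6, on chromosome 7 at 92604921 to 92836573, encodes a kinase partner of D-type cyclins. Its start region also held broad peaks in DMSO and narrower ones after dTAGV-1. In DMSO a single RAD21 peak spanned both listed starts, 5775 bases in clone A2 (fold 36.9) and 5747 bases in clone D7 (fold 33.3). At 4 h clone A2 had 1 peak of 1359 bases there (7.59), at the CTCF peak of fold 88.8 downstream of the inner start, and none at the outer start. At 24 h it had that peak (9.72) and a CTCF-free one of 512 bases at the outer start (3.70). Clone D7 had 2 such peaks at both times, with the CTCF-free one 1795 bases wide at 4 h (4.61) and 498 bases at 24 h (5.54). The summit at the CTCF peak lay 825 to 844 bases past the inner start in all 6 lists. Peak width depends on depth and on the caller's merging, and the DMSO library of clone A2 was the shallowest of the 6.

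Within the long CDK6 gene body, RAD21 was absent from both 4 h lists at 3 sites called in both DMSO lists. At chr7:92695314-92696225 (no CTCF), chr7:92698195-92698902 (CTCF 4.95) and chr7:92767274-92767931 (CTCF 11.6), the DMSO folds were 4.61 to 9.31. Clone A2 at 24 h had a peak at each of these sites, with folds of 4.50, 4.70 and 6.80, and clone D7 at 24 h had one at the last (8.61). Clone A2 thus kept 4 of its 7 DMSO peaks at the CDK6 locus at 4 h and overlapped 7 of 7 at 24 h. Clone D7 kept 4 of 8 at 4 h and 5 of 8 at 24 h. The site with the highest CTCF fold of all 64, 132, overlapped the neighbouring gene FAM133B (chr7:92589634-92590952), with the CTCF summit outside the gene. RAD21 there reached 3.69 in clone D7 DMSO and 4.41 in clone D7 at 4 h, with no peak in clone A2. Another CTCF peak inside CDK6 (chr7:92609670-92610525) had no RAD21 in any list.

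**Figure D4:**
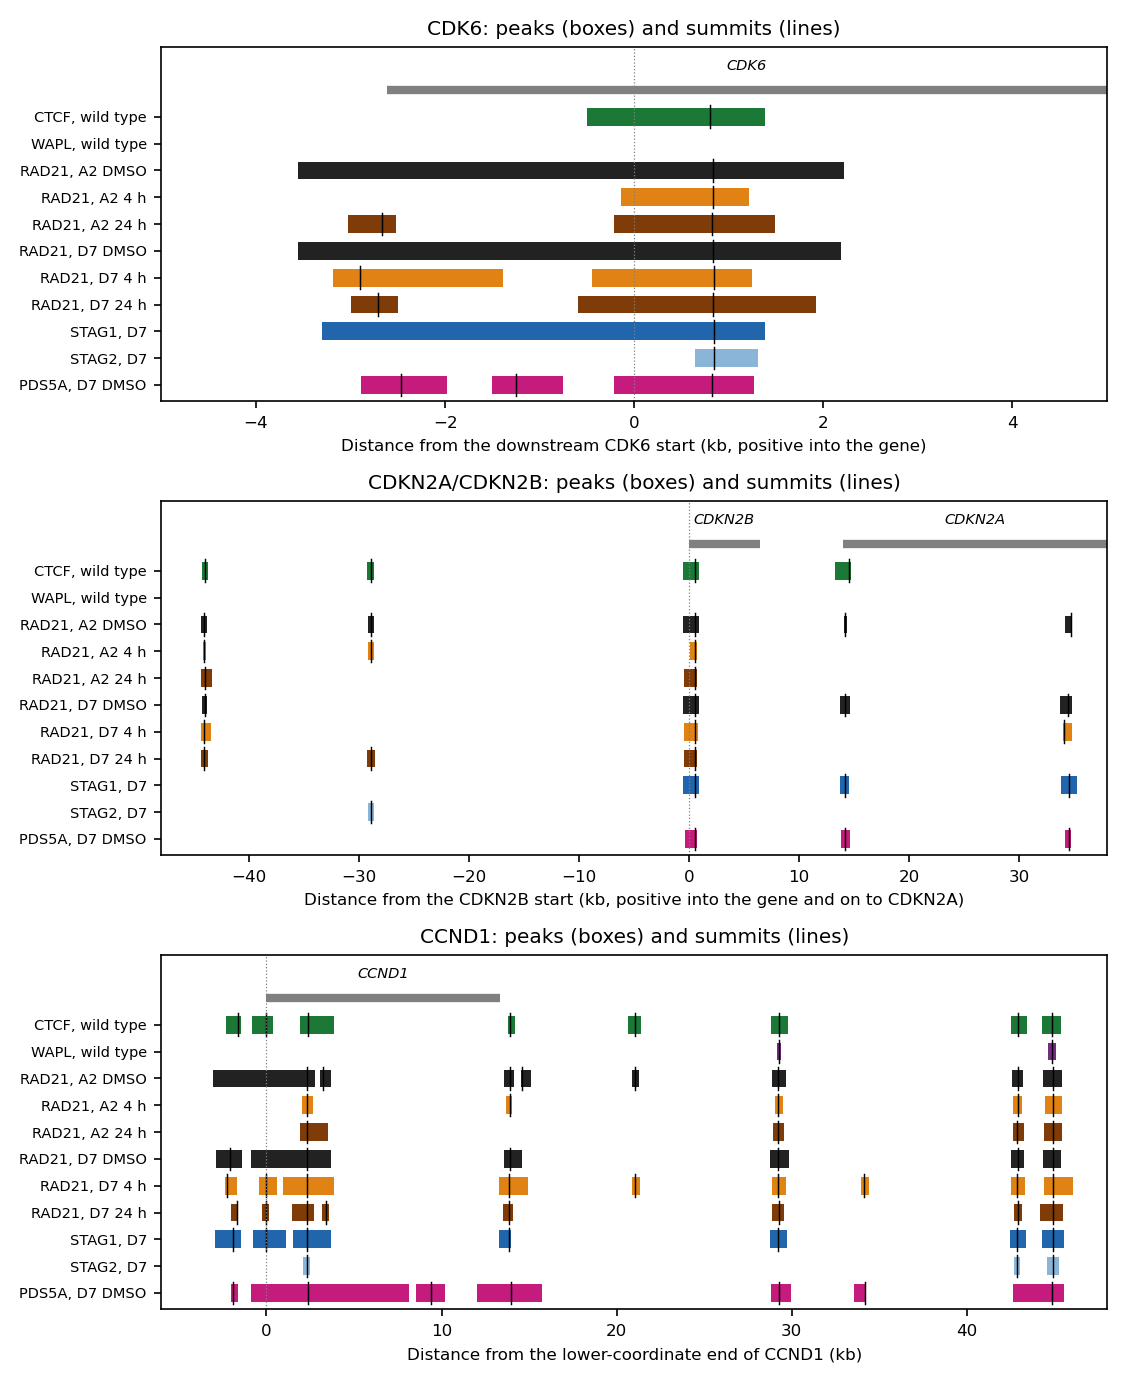
Peaks (boxes) and their summits (black lines) at the CDK6 starts, the CDKN2A/CDKN2B starts and CCND1 for 11 lists, against distance (kb) from the inner CDK6 start, the CDKN2B start and the lower-coordinate end of CCND1; grey bars are gene bodies. The DMSO RAD21 box over the CDK6 starts is 1 peak of more than 5 kb in both clones, and after dTAGV-1 it is replaced by narrower boxes.

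CCNE1, on chromosome 19 at 29811991 to 29824312, encodes cyclin E1, the activator of CDK2 at the start of S phase. Its start had a PDS5A peak (3.73) and no RAD21 peak in any of the 6 lists. RAD21 lay instead at 4 distant CTCF sites. One of them (chr19:29786149-29786629, CTCF 8.07) had RAD21 in clone D7 at 4 h alone, at a fold of 3.37, and the other 3 had it in both DMSO lists. At chr19:29771416-29772450, before the gene, RAD21 folds were 26.5 in clone A2 DMSO and 10.2 at 24 h, and 17.1, 17.2 and 19.7 in clone D7. At chr19:29857763-29858610, past the gene, they were 10.7 and 9.48 in clone A2, and clone D7 had 14.4, 15.8 and 13.6. Clone A2 at 4 h had a peak at neither. The last (chr19:29872922-29874324, CTCF 81.0, WAPL 13.1) was in all 6 lists, at 83.4, 40.0 and 24.8 in clone A2, and clone D7 had 72.6, 123 and 59.8. Clone A2 thus kept 1 of 3 DMSO peaks at 4 h and 3 of 3 at 24 h, and clone D7 kept 3 of 3 at both times.

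RB1, on chromosome 13 at 48303751 to 48481890, encodes the retinoblastoma protein. It was the sparsest locus for RAD21, with 3 peaks in clone A2 DMSO and 1 in clone D7 DMSO, or 1.08 and 0.360 peaks per 100 kb, where the medians over all genes were 2.00 and 1.97. Its lower-coordinate end (chr13:48303206-48304721, CTCF 3.69) had RAD21 at 4.21 in clone A2 DMSO, 5.55 in clone D7 DMSO and 3.05 in clone D7 at 4 h. STAG1 (5.55) and PDS5A (5.33) were called there too. Inside the gene, chr13:48334218-48335138 (CTCF 38.3) had RAD21 in clone A2 DMSO (14.5) and clone D7 at 24 h (4.96). At chr13:48400815-48401353, where LPAR6 lies within RB1, RAD21 was called in clone A2 DMSO (4.90), clone A2 at 4 h (6.48) and clone D7 at 24 h (6.15). STAG2 had a peak at both internal sites, 11.1 and 8.45, and STAG1 at neither. Clone A2 had 0 RAD21 peaks at RB1 at 24 h.

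MDM2, on chromosome 12 at 68808172 to 68850686, had strong CTCF and little RAD21 in the gene. At the start, whose sequence is given above, the CTCF fold was 51.7, and RAD21 had 4.04 in clone A2 DMSO, 3.93 in clone D7 DMSO and 3.67 in clone D7 at 4 h, with no peak in the other 3 lists. A second CTCF peak inside the gene (chr12:68829870-68830882), of fold 65.6, had RAD21 in clone A2 DMSO alone (6.36). RAD21 in all 6 lists was confined to 3 CTCF sites in the neighbouring gene CPM. The nearest (chr12:68863167-68864564) had 40.4, 18.5 and 25.0 in clone A2, and clone D7 had 27.8, 17.4 and 31.7. The farthest (chr12:68898801-68899866) had 56.2, 32.1 and 44.4 in clone A2. Clone D7 had 20.7 there in DMSO, 12 at 4 h and 21.6 at 24 h. The middle one (chr12:68871515-68872581) ranged from 5.56 to 18.4.

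STAG1 and STAG2 divided the sites unequally. The STAG1 list held 26879 peaks at a lowest background pileup of 1.77, and the STAG2 list 22518 at 3.14. Of 31 STAG1 peaks at the loci, 12 overlapped a STAG2 peak (38.7%, interval 23.7% to 56.2%), beside 58.0% of the whole list. This share was 44.0% (26.7% to 62.9%) with STAG1 cut by fold to the length of STAG2. It was 45.8% (27.9% to 64.9%) with a −log10 q of at least 10. The whole lists were not counted at these 2 settings. Of 19 STAG2 peaks, 12 overlapped STAG1 (63.2%, 41.0% to 80.9%), beside 69.6%. By site, 11 had both, 16 had STAG1 only and 7 had STAG2 only. All 16 STAG1-only sites had a clone D7 DMSO RAD21 peak, as did 2 of the 7 STAG2-only sites. By peak, 31 of 31 STAG1 peaks overlapped a clone D7 DMSO RAD21 peak, beside 93.6% of the STAG1 list, and 14 of 19 STAG2 peaks did (73.7%, 51.2% to 88.2%), beside 84.0%, a value within the interval. CTCF overlapped 28 of 31 STAG1 peaks (90.3%, beside 87.7% of the list) and 18 of 19 STAG2 peaks (94.7%, beside 85.4%). The highest STAG2 folds at the loci were 53.3 at the GPR19 site of CDKN1B, 48.8 at a CTCF site inside CDK6 (chr7:92620646-92622168) and 27.9 at the site past CCND1.

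PDS5A overlapped a clone D7 DMSO RAD21 peak at 27 of its 36 peaks (75.0%, beside 72.7% of the list), and 23 of the 36 overlapped CTCF (63.9%, interval 47.6% to 77.5%, beside 74.9%). Of the 33 sites with PDS5A, 7 had no other list: 2 at CDKN1A and 1 each at CDKN1B, CCND1, CCNE1, RB1 and MDM2. Their PDS5A folds were low, 2.53 to 4.50, at percentiles 0.959 to 32.4 of the list. The share of such sites was not counted over the whole PDS5A list. The 4 WAPL peaks all overlapped CTCF (99.2% of the WAPL list did) and lay at sites held by all 6 RAD21 lists. Of the whole WAPL list, 99.1% overlapped a clone A2 DMSO RAD21 peak and 98.5% a clone D7 DMSO one. The labels do not say which protein carries HA, and the peak names of that list read HA-NIPBL. The HA list, whose depth is unknown and of whose peaks 67.0% overlapped CTCF, had no peak at these loci.

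Other genes of the same pathways, 36 in a list of cyclins, CDKs, CDK inhibitors, E2F and RB family members and p53 targets, were counted in the same windows. All 36 matched the gene table and 34 had a RAD21 peak in DMSO in each clone. Of 19970 protein-coding genes, 90.0% had one in clone A2 DMSO and 88.9% in clone D7 DMSO. In clone A2, 26 of the 36 had fewer RAD21 peaks at 4 h than in DMSO, 9 as many and 1 more, and at 24 h 26, 8 and 2. In clone D7, 7 had fewer at 4 h, 18 as many and 11 more, and at 24 h 20, 14 and 2. The whole lists changed too, to 0.649 and 0.720 of DMSO in clone A2 and to 1.04 and 0.802 in clone D7. Genes with fewer or more peaks were not counted over all protein-coding genes. Clone A2 kept 54.0% of the 36 genes' 126 DMSO peaks at 4 h (interval 45.3% to 62.4%), beside 62.2% of all DMSO peaks. At 24 h it kept 56.3% (47.6% to 64.7%), beside 64.0%. Clone D7 kept 85.2% of 122 at 4 h (77.9% to 90.5%), beside 80.0%, and 67.2% at 24 h (58.5% to 74.9%), beside 68.8%. Each of these intervals held the value of the whole list, so no difference of these genes from it was detectable. GADD45A, a p53 target that acts in growth arrest, had 3, 0 and 2 RAD21 peaks in clone A2 (DMSO, 4 h, 24 h) and 2, 2 and 1 in D7. BAX, the p53 target that permeabilises mitochondria, had 5, 1 and 2 peaks in A2 and 7, 7 and 2 in D7. FAS, which encodes a death receptor, had 5, 4 and 7 in A2 and 6, 8 and 6 in D7.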

How the data were processed

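The deposited files are 12 peak lists without a header, 1 per immunoprecipitation, so peaks were called per library. The submitters' processing notes name BWA, Picard, SAMtools, bedtools, deepTools and MACS2 and the builds hg38 and mm10, with no version or role. The authors deposited a fold enrichment over local background (a ratio) for each peak, the −log10 p and −log10 q, and a score. The lowest −log10 q was 3.09 for CTCF and 2.00 to 2.53 for the other lists. The 10 inputs were not analysed here, and exon positions were not analysed here.

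Genes and starts came from RefSeq tables of GRCh38.p14. Peaks were called shared at an overlap of at least 1 bp. Pileup and background were solved from fold and −log10 p under a Poisson model, which gave pileups within 0.02 of a whole number for 100% of peaks in 11 lists and 1.74% of HA. This and the overlap code were tested on simulated data. The lowest background scales with reads and fragment length. Python 3.11.15, numpy 2.4.6, pandas 2.3.3 and scipy 1.17.1 were used.

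All 9 genes are described. Sites are named if within 1 kb of a start or gene end, highest by fold in a DMSO RAD21 list, in both DMSO lists and no dTAGV-1 list, in a dTAGV-1 list of each clone and neither DMSO list, or holding WAPL or HA. Further sites were chosen after their values were seen. The members and gene lists were chosen with earlier results of these data known.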

Additional observations from a re-analysis of the deposited data

Results flagged for a closer look

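The clones moved in opposite directions at 4 h in 2 values, and neither difference was tested, since each group is 1 library. The number of RAD21 peaks at the loci relative to DMSO reached 1.14 for D7, against 0.525 for A2, beside 1.04 and 0.649 over the whole lists. The share of RAD21 peaks overlapping CTCF changed by -8.21 percentage points from DMSO to 4 h in clone D7 and by 12.5 in clone A2. Over the whole lists this share moved the same way, from 83.1% to 78.2% in clone D7 and from 85.9% to 97.9% in clone A2. With a −log10 q of at least 10, the share at the loci rose in both clones. It went from 90.0% to 92.6% in clone D7 and from 96.6% to 100% in clone A2. With summits within 200 bp, clone D7 had 68.6% and 67.5%, and clone A2 80.0% and 95.2%. The depth, as lowest background pileup, was 4.05 in the clone D7 4 h list and 3.00 in its DMSO list, and 3.16 and 1.87 in clone A2.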

How the results depend on the processing

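With 8 loci and 1 library per group, peak numbers and the caller's threshold limit every value here. Retention ranged from 38.9% to 65.5% in clone A2 at 4 h, 51.9% to 77.3% at 24 h, 65.7% to 88.9% in clone D7 at 4 h and 56.5% to 80.8% at 24 h over the alternatives that stayed within the counting interval. Those outside it were 86.4% in clone A2 at 4 h when the 6 RAD21 lists were cut to equal length by fold, and 61.5% in clone D7 at 4 h in gene bodies alone. The excess of peaks in clone D7 at 4 h reversed with a −log10 q of at least 10 (ratio 0.900) and in gene bodies alone (0.692). The equal-depth ratio was added after seeing the data.

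The share overlapping CTCF was 96.6% in clone A2 DMSO and 92.6% in clone D7 at 4 h with a −log10 q of at least 10, and 68.6% in clone D7 DMSO with summits within 200 bp. At that q limit clone D7 DMSO had 90.0%, so the fall of this share in clone D7 at 4 h became a rise. The window set the number of peaks. Gene bodies alone held 18 CTCF, 0 WAPL, 11 STAG1, 10 STAG2 and 15 PDS5A peaks, and 18, 7 and 9 RAD21 peaks in clone A2 (DMSO, 4 h, 24 h) and 13, 9 and 11 in clone D7. Windows of 20 kb held 31 CTCF and 2 WAPL peaks, 11 and 15 RAD21 peaks in clone A2 at 4 h and 24 h, and 23, 24 and 19 in clone D7. Windows of 100 kb held 80 CTCF, 52 STAG1, 31 STAG2 and 59 PDS5A peaks, 69, 37 and 49 RAD21 peaks for clone A2, and 64, 67 and 52 for D7. Of 168 alternative values, 133 stayed within the interval or 1.5 times the count. The cause of the others was not tested, beyond fewer or more bases and peaks counted. Pairing the libraries by clone gives 2 pairs per time; their values stand side by side and no test was run on them.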
